A study of Mus musculus with 39 samples.

Results

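The genes described here are 9 transcription factors of fat cell formation, followed over diets and time in mouse subcutaneous adipose tissue: Pparg, Cebpa, Cebpb, Cebpd, Klf15, Ebf1, Zfp423, Nr1h3 and Rxra. They were found by gene name in the array files, which gave 13 probes for the 9 genes, out of 40628 probes and 29411 gene names in all. Pparg, Cebpb, Cebpd, Ebf1 and Nr1h3 had 1 probe each and Cebpa, Klf15, Zfp423 and Rxra had 2. None of the 9 passed the test for a difference between diets or over time after adjustment for all genes tested. Between arrays, Cebpa, Pparg and Nr1h3 were positively correlated (r from 0.65 to 0.85), though not alike on every array. Cebpd was low on the same 6 arrays as the immediate early genes. Many other genes followed them too. Of 12144 genes compared, 377, 89, 262 and 617 had r over 0.7 with Cebpa, Pparg, Nr1h3 and Cebpd.

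The data were 39 one-colour Agilent arrays of total RNA from C57BL/6J mice, 1 array for each diet and time point. All mice were put on their diet as weanlings aged 3 to 4 weeks: a diet with 10% of its calories from fat (LFC, 10 arrays), a high-fat diet with more sucrose and 60% of its calories from fat (HFC, 11 arrays), or the same high-fat diet plus the aqueous plant formulation KAL-1 in doses of 5 µg (HF5), 20 µg (HF20) and 75 µg (HF75), with 6 arrays each. LFC and HFC were both measured on Days 6, 10 and 14, at Week 0 and every 3 weeks from Week 3 to Week 18, the KAL-1 diets at Week 3 to Week 18 alone, and HFC also at Day 1. The study's methods, written for the liver of these mice, count weeks from Day 14, by which Day 14 and Week 0 fall at the same time on diet. They are kept as separate time points here, as the labels have them, and are 2 of the 10 that LFC and HFC share. A group held 30 animals, of which 5 were taken every 3 weeks. The sources used here do not say whether an array carried RNA of 1 mouse or of a pool, so n below counts arrays. The submitters' design text mentions biological replicates, but each diet had a single array at a labelled time point, so p values measure the spread of a difference over time points. Day 14 and Week 0 give the only repeat of a time on diet, and those arrays were scanned on different days. Between them Cebpa went from 0.80 to -0.15 on LFC and from 1.94 to 0.80 on HFC, Klf15 from -0.67 to 0.83 and from 0.02 to 0.43, and Pparg from 4.90 to 4.78 and from 4.24 to 4.66.

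Fat cells arise from progenitors in a cascade of transcription factors. Cebpb and Cebpd, members of the C/EBP family, act early in cultured preadipocytes and switch on Pparg and Cebpa, which keep each other expressed and turn on the genes of lipid storage. Pparg is a nuclear receptor that binds DNA as a pair with Rxra. Nr1h3, the sterol-sensing receptor LXR alpha, also pairs with Rxra. Ebf1 and Zfp423 act in progenitors, where Zfp423 is a mark of cells committed to the white fat lineage, and Klf15 is a Krüppel-like factor that responds to glucocorticoids and is abundant in mature fat cells.

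RefSeq promoter windows of 300 bases, from 250 before to 50 after a transcription start (GRCm38.p6), were found for 8 of the 9 genes, 14 windows in all. Those of Pparg, Cebpa, Nr1h3 and Klf15 are shown because Cebpa was correlated over the arrays with each of the other 3, as described further on. For Pparg the window of the most downstream of its 3 starts is given, for Nr1h3 the more upstream of its 2. Capitals mark matches on either strand to 5 motifs: CACGTG (an E-box), AGGTCA (1 repeat of a nuclear receptor site), CCAAT, TTGCNNAA (a C/EBP site) and TATAAA. No 2 of these matches overlap in the windows shown.
Pparg promoter (chr6:115421816-115422115, plus strand): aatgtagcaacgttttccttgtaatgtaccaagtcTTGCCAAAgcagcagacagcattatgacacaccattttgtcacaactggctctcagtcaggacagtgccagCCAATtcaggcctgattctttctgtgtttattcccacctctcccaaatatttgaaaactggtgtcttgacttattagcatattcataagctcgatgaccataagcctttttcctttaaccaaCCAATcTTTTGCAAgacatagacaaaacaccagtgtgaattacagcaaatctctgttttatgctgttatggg
Cebpa promoter (chr7:35119043-35119342, plus strand): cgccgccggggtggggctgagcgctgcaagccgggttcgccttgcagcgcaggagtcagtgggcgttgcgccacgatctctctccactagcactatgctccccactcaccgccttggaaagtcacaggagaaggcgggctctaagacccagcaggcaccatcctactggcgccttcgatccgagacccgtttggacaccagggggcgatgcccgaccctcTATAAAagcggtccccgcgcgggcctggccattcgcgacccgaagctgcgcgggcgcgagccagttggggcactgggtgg
Nr1h3 promoter (chr2:91195067-91195366, minus strand): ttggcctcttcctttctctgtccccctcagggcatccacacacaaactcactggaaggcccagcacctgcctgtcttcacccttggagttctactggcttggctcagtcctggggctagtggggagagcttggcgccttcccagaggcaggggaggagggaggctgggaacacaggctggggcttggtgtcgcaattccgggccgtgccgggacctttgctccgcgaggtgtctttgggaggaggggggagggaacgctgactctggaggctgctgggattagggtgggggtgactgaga
Klf15 promoter (chr6:90462326-90462625, plus strand): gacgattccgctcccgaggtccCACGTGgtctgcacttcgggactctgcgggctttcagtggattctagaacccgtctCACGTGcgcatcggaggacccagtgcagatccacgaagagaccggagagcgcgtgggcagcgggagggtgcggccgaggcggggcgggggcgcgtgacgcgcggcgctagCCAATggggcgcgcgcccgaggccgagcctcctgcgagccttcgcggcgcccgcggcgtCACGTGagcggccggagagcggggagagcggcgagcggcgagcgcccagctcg
The Klf15 window held 3 E-boxes and 1 CCAAT, and 7.15% of the 32841 promoter windows of the mouse table had at least 1 E-box. The Pparg window held 2 CCAAT motifs and 2 C/EBP sites, which were present in 37.4% and 10.8% of all windows. The windows of the other 2 Pparg starts had no C/EBP site, and each held 1 AGGTCA. The Cebpa window had 1 TATAAA (13.6% of all windows) and the Nr1h3 window had none of the 5 motifs. AGGTCA, found in 16.3% of all windows, was in none of the windows shown, which depends on the Pparg start chosen. These are matches of letters and not measured binding.

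Several arrays stood apart before any of the 9 genes was considered. All 6 adipocyte markers (Adipoq, Fabp4, Plin1, Cidec, Cfd and Lipe) were well above background on all 39 arrays, and their mean level lay between 2.13 and 6.00. Levels here and below are log2 intensities relative to the 75th percentile of the array, which is 0. The mean of 6 skeletal muscle markers had a median of 0.11 but reached 7.61 on the HF75 array of Week 3, 6.53 on the HF5 array of Week 12 and 6.23 on the HFC array of Day 1. The mean of 5 brown and beige fat markers had a median of -0.83 and was highest on the LFC array of Day 6 (3.87), the HF20 array of Week 12 (3.81) and the HFC array of Day 6 (3.79). The mean of 6 lymphocyte markers had a median of -2.98 and was 2.07 on the LFC array of Week 3. The mean of 10 immediate early genes lay between -0.74 and 0.01 on 6 arrays (HFC at Day 1, Day 6 and Day 10, LFC at Day 6 and Week 12, HF75 at Week 3) and between 3.90 and 5.65 on the other 33. Spots well above background made up 49.3% to 87.8% of an array (lowest on HF75 Week 3, highest on HF20 Week 15), and the 75th percentile of intensity was lowest, at 108, on the LFC array of Week 18. The HF5 and HF20 arrays of Week 12 went against the deposited table of ratios: the HF5 array matched the HF20 column (r = 0.999 over probes, against 0.663 for its own column) and the HF20 array, the one with the high brown and beige markers, matched the HF5 column (0.999 against 0.666). The HF5 array of Week 12 had a brown and beige level of 0.45. The title that this HF5 column carries has the letter B where those of HF20, HF75 and HFC at that week have S, which the labels do not explain. The labels of the array files were kept, and the values with the 2 exchanged are given where they matter.

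All 9 genes were well above background on all 39 arrays with their brightest probe, which is used throughout. Cebpa, the C/EBP factor of mature fat cells, varied most: its lowest level was -1.67 (HF75 Week 3), its median 0.60 and its highest 4.35 (HFC Day 10). Its SD over the arrays, 1.54, was at the 97.0th percentile among 12145 genes well above background on all arrays, whose median SD was 0.64. Cebpd was next (SD 1.16, 89.8th percentile), from 2.45 on the HFC array of Day 6 to 7.03 on the HF5 array of Week 18, with 8 arrays saturated, so that its highest levels may be held down. Rxra (SD 1.11) went from 1.69 on the HF20 array to 7.40 on the LFC array, both of Week 18. Pparg (SD 1.04) had a median of 4.33 and was lowest at 1.18 (HFC Day 1), 1.28 (HF75 Week 3) and 1.95 (LFC Week 3), which are 3 of the arrays set apart above by their muscle or lymphocyte markers. Other arrays with high muscle markers did not have low Pparg: it was at 4.59 on the HF5 array of Week 12 (muscle 6.53), and at 4.97 on the HFC and 4.93 on the LFC array of Day 6 (5.77 and 5.14). Whether those cells account for the low Pparg was not tested, and in such bulk tissue fewer cells of a type and less RNA per cell cannot be told apart.

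Klf15 (SD 1.03) ranged from -1.99 (HF5 Week 6) to 2.55 (HFC Day 10). The remaining 4 genes had SDs between the 37.6th and the 62.1st percentile: Nr1h3 with an SD of 0.74 (0.59 to 3.52), Ebf1 with 0.68 (-2.73 to 1.17), Cebpb with 0.56 (-0.16 to 2.76) and Zfp423 with 0.56 (-2.81 to -0.61). The lowest Ebf1 was on the HF75 array and the lowest Cebpb and Zfp423 on the LFC array of Week 3. Where a gene had a second, dimmer probe, the 2 probes followed each other closely over the 39 arrays for Cebpa (r = 0.984), less for Klf15 (0.629) and Zfp423 (0.546), and not for Rxra (0.00965). The Rxra level is therefore that of 1 probe, which its other probe did not follow.

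**Figure D1:**
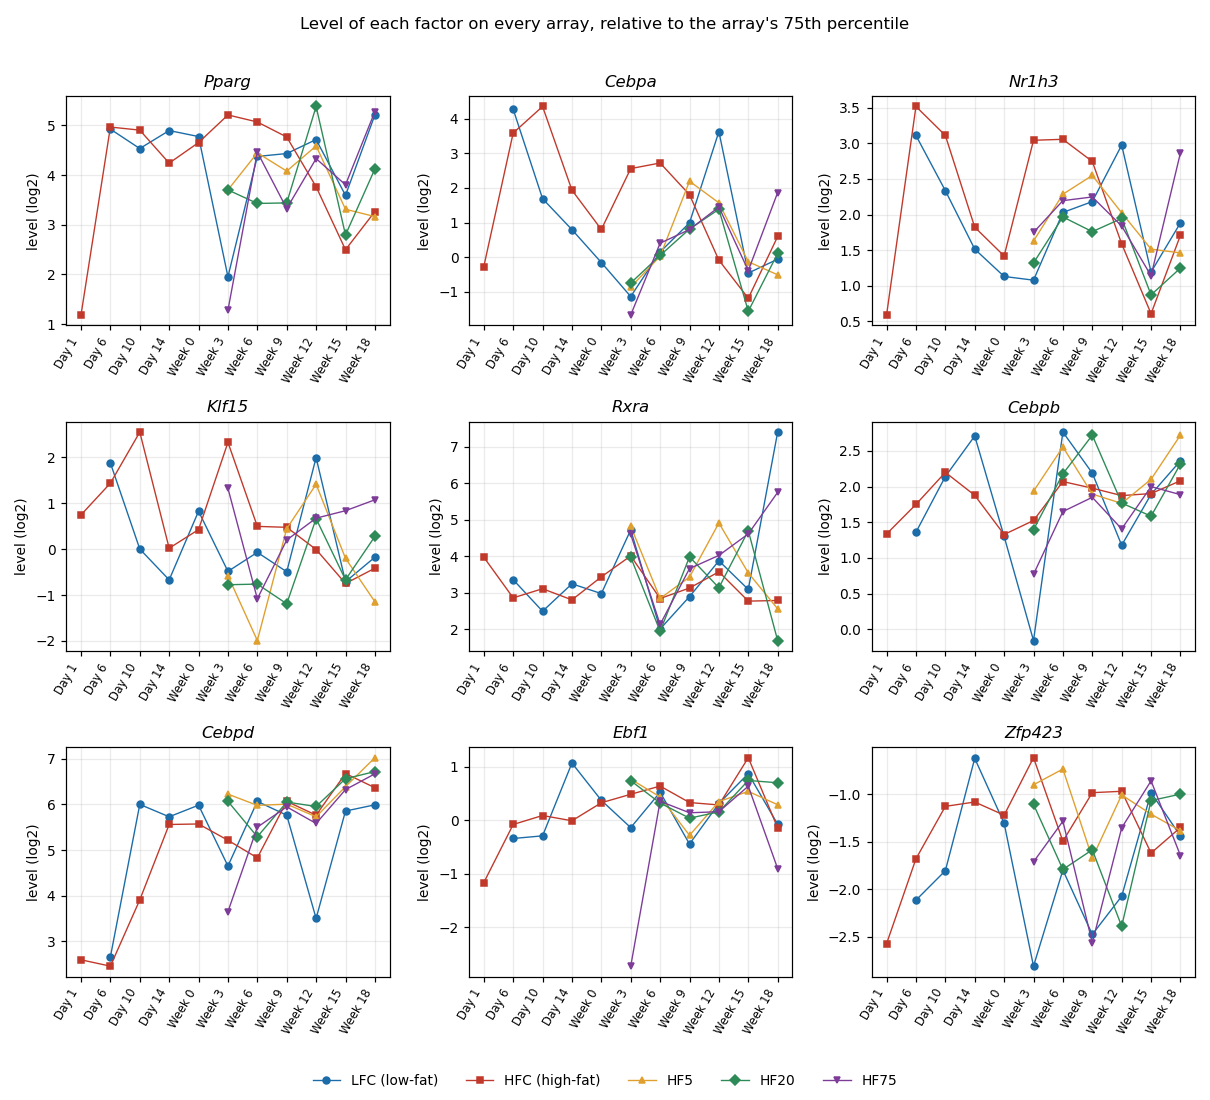
Level (log2, 0 is the 75th percentile of the array) of each of the 9 factors on every array by time point, 1 point per array, joined by diet in the order of the labelled time points, of which Day 14 and Week 0 may be the same time on diet. Cebpa spans -1.67 to 4.35, Rxra reaches 7.40 on the LFC array of Week 18, and Cebpd is at 2.45 to 3.91 on the 6 arrays with low immediate early genes.

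The first question was whether the high-fat diet moved the adipogenic factors. Averaged over the 10 time points that both diets share, the master regulator Pparg was at 4.33 ± 0.89 on HFC and 4.34 ± 0.95 on LFC (SD, n = 10 arrays each), a difference of -0.01 (95% confidence interval -0.89 to 0.88). Its partner Rxra was at 3.14 ± 0.42 and 3.61 ± 1.52, a difference of -0.47 (SE 0.44) that became -0.01 without Week 18, where the LFC array stood at 7.40, and was 0.06 (SE 0.35) with its second probe. Cebpa was higher on HFC at 7 of 10 time points, by 0.74 (SE 0.59), Nr1h3 at 7 of 10, by 0.32 (SE 0.28), and Klf15 at 5 of 10, by 0.45 (SE 0.41). By limma none of the 9 genes was called at an adjusted p under 0.05 (smallest adjusted p 0.803), and neither was any of the 19873 genes tested (0%). At an unadjusted p under 0.05 none of the 9 passed, where 5.86% of all genes did.

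At Day 10, Week 3 and Week 12, the time points with the largest Cebpa differences, those of Klf15 and Nr1h3 had the same sign as that of Cebpa. At Day 10, HFC was above LFC by 2.66 for Cebpa, 2.55 for Klf15 and 0.78 for Nr1h3. At Week 3 it was above by 3.69, 2.81 and 1.96, and Pparg by 3.26. At Week 12 HFC was below LFC by -3.71 for Cebpa, -2.0 for Klf15 and -1.39 for Nr1h3. The LFC array of Week 12 and the HFC array of Day 10 were among the 6 arrays with low immediate early genes, and the LFC array of Week 3 was the one with the highest lymphocyte markers. The mean of the adipocyte markers was 5.89 on HFC and 5.25 on LFC at Day 10, 5.55 and 3.82 at Week 3, and 3.88 and 5.60 at Week 12. That of the brown and beige markers was -1.95 on HFC and 2.78 on LFC at Week 12, and the part of these cells in the differences was not tested. The LFC and HFC arrays were scanned on different days at Day 6 and Week 12. With scan day as the block in place of time point, Day 6 and Week 12 dropped out, since each of their arrays was alone on its scan day. Cebpa was lower on HFC at both. From the time points left, the difference was 1.47 for Cebpa (SE 0.44, unadjusted limma p = 0.00794, adjusted p = 0.235), 0.86 for Klf15 (SE 0.39) and 0.52 for Nr1h3 (SE 0.27). Without Week 12 the difference of Cebpa was 1.23 (SE 0.45, unadjusted limma p = 0.0190), and without Week 3 it was 0.41 (p = 0.492).

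Within Week 3 to Week 18, fitted with all 5 diets, Zfp423 was the 1 gene of the 9 with an unadjusted p under 0.05, against 5.05% of the 21087 genes tested. This zinc finger factor of committed preadipocytes had its lowest, median and highest level at -1.62, -1.17 and -0.61 on the 6 HFC arrays and at -2.81, -1.93 and -0.98 on the 6 LFC arrays. The 2 groups overlapped, HFC being higher in 5 of 6 weeks. The difference was 0.76 (SE 0.30, 95% confidence interval 0.13 to 1.39; limma p = 0.0204, adjusted p = 0.850), and an exact sign-flip permutation test over the 6 weeks gave p = 0.156. It was 0.47 without Week 3 (p = 0.147), where the LFC array with the lymphocyte markers lay at -2.81, 0.20 (p = 0.450) with normexp background correction in place of the scanner's, 0.40 with array quality weights and 0.29 with slide as a random block. The second Zfp423 probe gave 0.49 (SE 0.36). Over all 10 time points Zfp423 was higher on HFC at 8 of 10, by 0.53 (SE 0.27; exact permutation p = 0.0859).

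None of the other 8 genes passed at Week 3 to Week 18 even without adjustment, and no gene of the 21087 was called (0%). Cebpd was higher on HFC in 5 of 6 weeks, at 5.82 ± 0.70 against 5.31 ± 1.03 (SD, n = 6 each), but its difference of 0.52 (SE 0.35) became 0.21 without the arrays with low immediate early genes, which left out the LFC array of Week 12. The difference of Rxra, -0.81 (SE 0.63), became -0.05 without Week 18 and was -0.14 (SE 0.39) with its second probe. Pparg, Cebpb, Nr1h3, Ebf1, Klf15 and Cebpa differed by 0.05, 0.20, 0.23, 0.29, 0.34 and 0.55, each less than its SE. The small mean of Pparg held opposite signs: HFC was above LFC by 3.26, 0.69 and 0.33 at Weeks 3, 6 and 9 and below it by -0.95, -1.09 and -1.95 at Weeks 12, 15 and 18. For Pparg, HFC against LFC from Week 3 to Week 18, the difference was -0.59 (SE 0.44) without Week 3. Whether the difference of Pparg changed over these weeks was not tested.

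**Figure D2:**
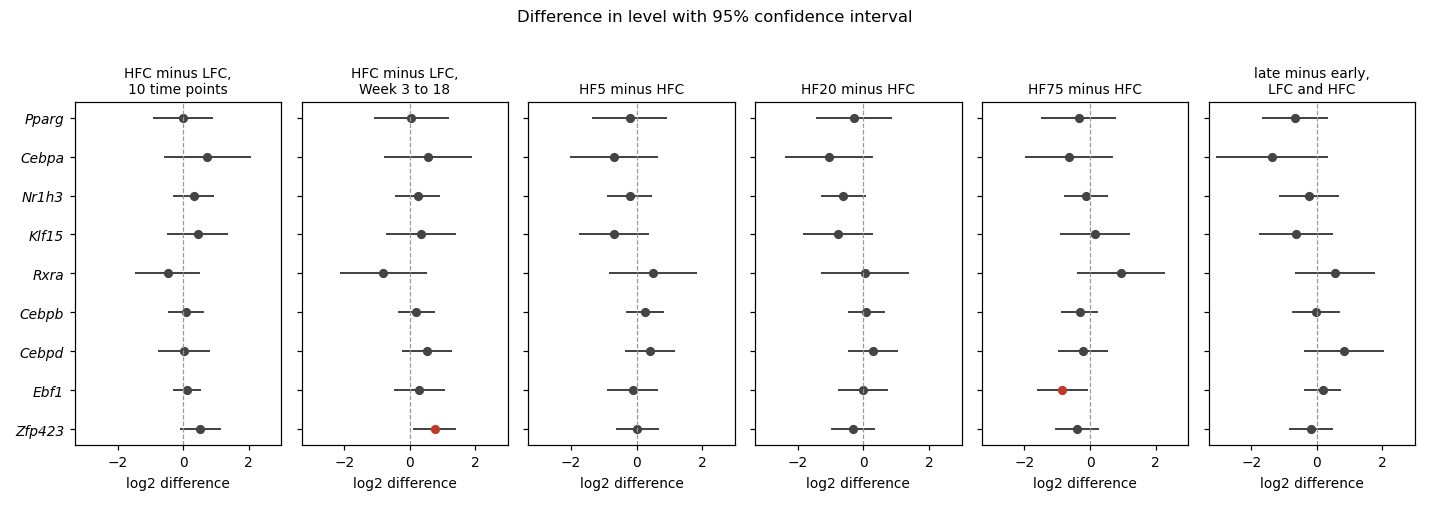
Difference in level (log2, horizontal axis) of each factor in 6 comparisons, with points for the estimate and lines for its 95% confidence interval from limma. Only Zfp423 in HFC minus LFC at Week 3 to 18 (0.76) and Ebf1 in HF75 minus HFC (-0.85), drawn in red, have an unadjusted p under 0.05, and no difference has an adjusted p under 0.05.

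Whether the effect of the high-fat diet on a factor depended on the time on diet was asked with the difference of HFC against LFC at Week 3 to 18 minus that at Day 6 to Week 0. Cebpd, the early C/EBP factor, came closest. It was lower on HFC at each of the 4 early time points, by -0.20, -2.10, -0.17 and -0.41 in order of time, and higher at 5 of the 6 late ones, by 0.52 on average. The change between early and late was 1.24 (SE 0.64, 95% confidence interval -0.18 to 2.65; limma p = 0.0804, adjusted p = 1.00). It was 0.78 without Day 10 and 0.46 (SE 0.61) without the 6 arrays with low immediate early genes. Of the other genes, Zfp423 (0.57, SE 0.55) and Ebf1 (0.41, SE 0.38) changed by more than their SE and the other 6 by less. None of the 9 genes and none of the 19873 tested was called (0%), and 1.89% of all genes, none of the 9 among them, had an unadjusted p under 0.05.

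The next question was what each dose of KAL-1 added to the high-fat diet at Week 3 to Week 18. All 3 doses were set against the same 6 HFC arrays, so their differences are not independent of each other. No gene of the 21087 was called at 5 µg, 20 µg or 75 µg or for the 3 doses together (0% in each), and therefore none of the 9. The share of all genes with an unadjusted p under 0.05 was 1.36% for HF5, 4.3% for HF20, 5.02% for HF75 and 4.51% for the doses together, and of the 9 genes 0, 0, 1 and 0 were among them.

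That 1 gene was Ebf1, a factor of early fat cell commitment, at 75 µg. Its lowest, median and highest level was -2.73, 0.15 and 0.64 on the HF75 arrays and -0.14, 0.41 and 1.17 on the HFC arrays. HF75 was below HFC in each of the 6 weeks, by -3.22, -0.28, -0.19, -0.13, -0.53 and -0.76 from Week 3 to Week 18, although the groups overlapped. The mean difference was -0.85 (SE 0.36, 95% confidence interval -1.60 to -0.11; limma p = 0.0267, adjusted p = 0.866), with an exact permutation p of 0.0312, the smallest that 6 weeks can give. Without Week 3 it was -0.38 (p = 0.119), and with array quality weights -0.31 (p = 0.207). The HF75 array of Week 3 had the highest skeletal muscle level of all (7.61) and the lowest macrophage and endothelial levels (-1.89 and 0.73), and their part in its Ebf1 level was not tested. At 5 µg and 20 µg Ebf1 differed from HFC by -0.11 and -0.01, each less than its SE of 0.36.

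**Figure D3:**
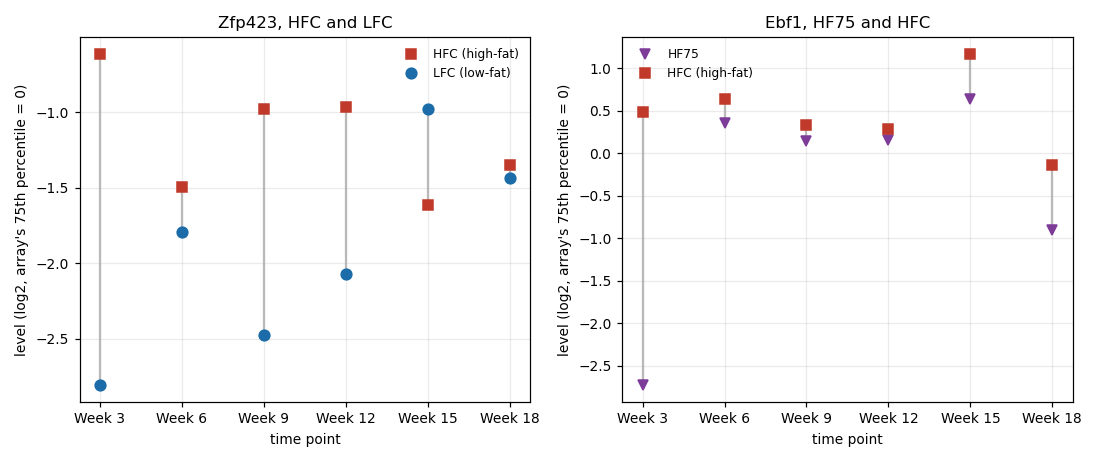
Level (log2) of Zfp423 on the HFC and LFC arrays (left) and of Ebf1 on the HF75 and HFC arrays (right) at Week 3 to Week 18, 1 array per symbol, with grey lines joining the 2 arrays of a week. Zfp423 is higher on HFC in 5 of 6 weeks and Ebf1 lower on HF75 in 6 of 6, and Week 3 has the widest gap in both, 2.19 and -3.22.

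At 20 µg, 3 genes had differences from HFC larger than their SE besides Zfp423 (-0.32, SE 0.30; -0.09 with HF5 and HF20 of Week 12 exchanged), and none passed the test. The direction of Zfp423 turned with its second probe (0.39, SE 0.36) and with normexp (0.40). Cebpa was at 0.01 ± 1.06 on HF20 and 1.07 ± 1.56 on HFC (SD, n = 6 each), a difference of -1.06 (SE 0.63; adjusted limma p = 0.997; exact permutation p = 0.219), being lower in 5 of 6 weeks. Nr1h3 was at 1.52 ± 0.44 and 2.13 ± 0.99, a difference of -0.61 (SE 0.31; unadjusted limma p = 0.0635, adjusted p = 0.997; exact permutation p = 0.156). Klf15 differed by -0.76 (SE 0.50), being lower in 3 of 6 weeks, and by -0.18 (SE 0.50) with its second probe. Without Week 3 these differences of Cebpa, Nr1h3 and Klf15 were -0.61, -0.38 and -0.30. With HF5 and HF20 of Week 12 exchanged they were -1.03, -0.59 and -0.64, and with scan day as the block they were -1.38, -0.75 and -1.01. In the fit by scan day the HF20 and HFC arrays of Weeks 6 and 12 lay in different blocks. Without Week 12, where the HF20 array had the high brown and beige markers, the differences for Cebpa, HF20 against HFC, Nr1h3, HF20 against HFC, and Klf15, HF20 against HFC, were -1.56 (SE 0.59, unadjusted limma p = 0.0158, adjusted p = 0.551), -0.80 (SE 0.32, unadjusted p = 0.0212, adjusted p = 0.579) and -1.05 (SE 0.51). The part of the brown and beige cells was not tested. With normexp background correction Nr1h3 was called in HF20 (-1.04, adjusted p = 0.0241), together with 8121 of the 21087 genes and with the median of all genes moved to 0.36.

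At 5 µg Cebpa and Klf15 lay below HFC by -0.69 (SE 0.63) and -0.70 (SE 0.50), and Cebpd lay above it by 0.41 (SE 0.35). Without Week 3 these were -0.14, -0.26 and 0.29, without Week 12 they were -1.15, -1.12 and 0.50, and with HF5 and HF20 of Week 12 exchanged they were -0.72, -0.82 and 0.44. At 75 µg Rxra was 0.94 above HFC (SE 0.63), higher in 5 of 6 weeks, and 0.54 without Week 18, while its second probe gave -0.27 (SE 0.39), the other direction. Cebpb at 75 µg was below HFC in 5 of 6 weeks, by -0.31 (SE 0.26, exact permutation p = 0.0625). Cebpa and Zfp423 at 75 µg were also below HFC by more than their SE, at -0.66 (SE 0.63) and -0.40 (SE 0.30). Both turned under alternatives given further on, and the second Zfp423 probe gave -0.15 (SE 0.36). For Pparg the differences at 5, 20 and 75 µg were -0.21, -0.28 and -0.35, each with an SE of 0.54 and with 95% confidence intervals of -1.33 to 0.90, -1.40 to 0.83 and -1.47 to 0.77. In both HF20 and HF75 Pparg was below HFC at Weeks 3, 6 and 9 and above it at Weeks 12, 15 and 18, while on the HFC arrays, which both share, it was at 5.21, 5.07, 4.77, 3.77, 2.50 and 3.27. With the 3 doses together, Cebpa (-0.80, SE 0.52), Klf15 (-0.44, SE 0.41), Ebf1 (-0.33, SE 0.29) and Nr1h3 (-0.31, SE 0.25) lay below HFC by more than their SE, and without Week 3 these were -0.23, -0.06, -0.21 and -0.08. Over all 6 weeks the second Klf15 probe gave -0.27 (SE 0.41) for the 3 doses together.

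Of the 4 highest Cebpa levels of all arrays, 3 were at Day 6 or Day 10 and 1 on the LFC array of Week 12, and all 4 arrays were among the 6 with low immediate early genes. On the LFC arrays it was at 4.27, 1.69, 0.80 and -0.15 on Days 6, 10 and 14 and at Week 0, and on the HFC arrays at 3.59, 4.35, 1.94 and 0.80. Nr1h3 was likewise at 3.11, 2.34, 1.52 and 1.13 on LFC and at 3.52, 3.11, 1.82 and 1.42 on HFC. The mean of 5 brown and beige fat markers was 3.87 on the LFC and 3.79 on the HFC array of Day 6, against a median of -0.83 over all arrays, and that of the skeletal muscle markers was 5.14 and 5.77 there and 4.18 on the HFC array of Day 10, against a median of 0.11. The part of those cells in these levels was not tested. Week 3 to 18 against Day 6 to Week 0, over both diets, the difference was -1.37 for Cebpa (SE 0.80, 95% confidence interval -3.03 to 0.30; adjusted limma p = 0.660), -0.67 for Pparg (SE 0.47), -0.63 for Klf15 (SE 0.53; -1.13, SE 0.55, with its second probe) and -0.24 for Nr1h3 (SE 0.42). Without the 6 arrays with low immediate early genes the Cebpa difference was -0.72. Of the 20602 genes tested 1 was called (Nrk, 0.00485%), none of the 9, and 8.31% had an unadjusted p under 0.05, again none of the 9. Age, time on diet and scan day cannot be told apart in these comparisons of time.

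From Week 3 to Week 18, over all 5 diets, Cebpd had a slope of 0.084 per week on the log2 scale (SE 0.031, 95% confidence interval 0.021 to 0.147; limma p = 0.0108, adjusted p = 0.807). Its mean over the 5 diets was 5.16 ± 1.06 at Week 3, 5.53 ± 0.51 at Week 6, 5.97 ± 0.12 at Week 9, 5.31 ± 1.02 at Week 12, 6.36 ± 0.32 at Week 15 and 6.56 ± 0.39 at Week 18 (SD, n = 5 arrays). The slope was 0.07 without the arrays with low immediate early genes, of which HF75 Week 3 and LFC Week 12 fall in these weeks. The other 8 genes had slopes between -0.03 and 0.04. Among all 21087 genes 1 was called (Gm7776, 0.00474%), none of the 9, while Cebpd was 1 of the 5.53% with an unadjusted p under 0.05.

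Cebpd separated the 6 arrays with low immediate early genes from the rest without overlap: it was at 2.45, 2.59, 2.66, 3.50, 3.65 and 3.91 on the 6 arrays and between 4.65 and 7.03 on the other 33. How many of all genes separate these arrays was not counted. The mean of 14 inhibitors of adipogenesis, a list read further on, did so as well. It was at -1.12 to -0.50 on the 6 arrays and at -0.38 and above on the 33. Immediate early genes such as Fos and Jun are induced within minutes by handling, stress or growth factors, and Cebpd is known to respond fast to such stimuli as well. Whether such stimuli have a part in the levels on these arrays was not tested. The other 8 genes overlapped between the 2 sets. Cebpa had medians of 3.61 on the 6 arrays and 0.41 on the 33, but the 6 held both its 4 highest levels of all arrays (3.59 to 4.35) and its lowest (-1.67, HF75 Week 3). Klf15 had medians of 1.66 and -0.07, and Nr1h3 of 3.04 and 1.82. Of the 6 arrays, 3 were early ones of LFC or HFC (Day 6 and Day 10) and 1 was a late one (LFC Week 12). The Cebpd difference between late and early time points was 0.83 (SE 0.56) with them and -0.03 (SE 0.35) without them. This set of arrays was found in the data and is not a group of the study.

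The 36 pairs of genes were then compared over the arrays. Over all 39 arrays 12 pairs had an adjusted permutation p under 0.05, 9 with a positive and 3 with a negative correlation, and 6 of the 12 involved Cebpd. The share of all gene pairs that would pass was not computed, so these counts do not set the 9 genes apart. Of 12144 genes compared, 377, 89, 262 and 433 had r over 0.7 with Cebpa, Pparg, Nr1h3 and Klf15. Because Cebpd falls into 2 clusters, its r and rho with the other 8 genes are given only within the 33 arrays. There 9 pairs passed, 7 positive and 2 negative, and 6 pairs passed in both sets. To take out differences between time points, r was also computed after the mean of each time point had been subtracted, which does not remove scan day at Day 6, Week 6 and Week 12, where the arrays were scanned on 2 days.

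Cebpa and Nr1h3 followed each other most closely: r = 0.854 and Spearman's rho = 0.836 over 39 arrays (p = 1e-05 for each, the smallest that 100000 permutations give; adjusted p = 0.00018), 0.833 without the 2 arrays farthest from the median of Cebpa, 0.867 within time points and 0.834 over the 33 arrays. On the arrays with the lowest mean of the adipocyte markers, HFC of Week 15 (2.13) and HFC of Day 1 (2.66), Cebpa was at -1.19 and -0.27, Nr1h3 at 0.61 and 0.59, and Pparg at 2.50 and 1.18. On the arrays with the highest mean, HF20 of Week 12 (6.00), HF75 of Week 18 (5.95) and HFC of Day 10 (5.89), Cebpa was at 1.38, 1.87 and 4.35, Nr1h3 at 1.95, 2.87 and 3.11, and Pparg at 5.38, 5.28 and 4.91. Low levels of these genes were not confined to arrays with low markers. HF75 of Week 3 had the lowest Cebpa of all (-1.67) and a Pparg of 1.28 at a marker mean of 4.02. LFC of Week 3 had a Pparg of 1.95 at a marker mean of 3.82. The part of the fat cell content in these correlations was not tested. Cebpa and Pparg, the mutually reinforcing pair of the fat cell programme, had r = 0.670 and rho = 0.712 (adjusted p = 0.00018 for each), 0.674 without the 2 extreme arrays and 0.620 within time points. Pparg and Nr1h3 had r = 0.647 and rho = 0.650 (adjusted p = 0.00018 for each) with 0.665 without the 2 extreme arrays and 0.618 within time points. Cebpa and Klf15 had r = 0.656 and rho = 0.559 (adjusted p = 0.00018 and 0.0018) with 0.549 without the 2 extreme arrays and 0.739 within time points. The promoter windows shown above are those of Cebpa and these 3 genes. Klf15 with Nr1h3 passed over 39 arrays (r = 0.516, rho = 0.425, adjusted p = 0.00546 and 0.0267) but not over the 33 (r = 0.377, adjusted p = 0.113), and its r within time points was 0.737 over the 39 and 0.744 over the 33. Klf15 with Pparg passed over the 33 (r = 0.501, adjusted p = 0.0196) but not over the 39 by r (0.305, adjusted p = 0.113; rho = 0.480, adjusted p = 0.0121), with 0.376 and 0.590 within time points over the 39 and the 33.

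The 2 progenitor factors Ebf1 and Zfp423 formed the other pair, with r = 0.472 and rho = 0.646 (adjusted p = 0.0102 and 0.00018), 0.529 without the 2 extreme arrays and 0.335 within time points. Over the 33 arrays Ebf1 ran against Cebpa (r = -0.444, rho = -0.473, adjusted p = 0.0372 for r) and Nr1h3 (r = -0.475, rho = -0.432, adjusted p = 0.0255 for r). Without the 2 extreme arrays these were -0.598 and -0.293, and within time points -0.238 and -0.305. Over all 39 arrays they were -0.0529 and -0.171 and did not pass. Cebpb and Cebpd, the 2 early C/EBP factors, had r = 0.472 and rho = 0.361 over the 33 arrays (adjusted p = 0.0311 for r), with 0.258 without the 2 extreme arrays and 0.583 within time points.

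**Figure D4:**
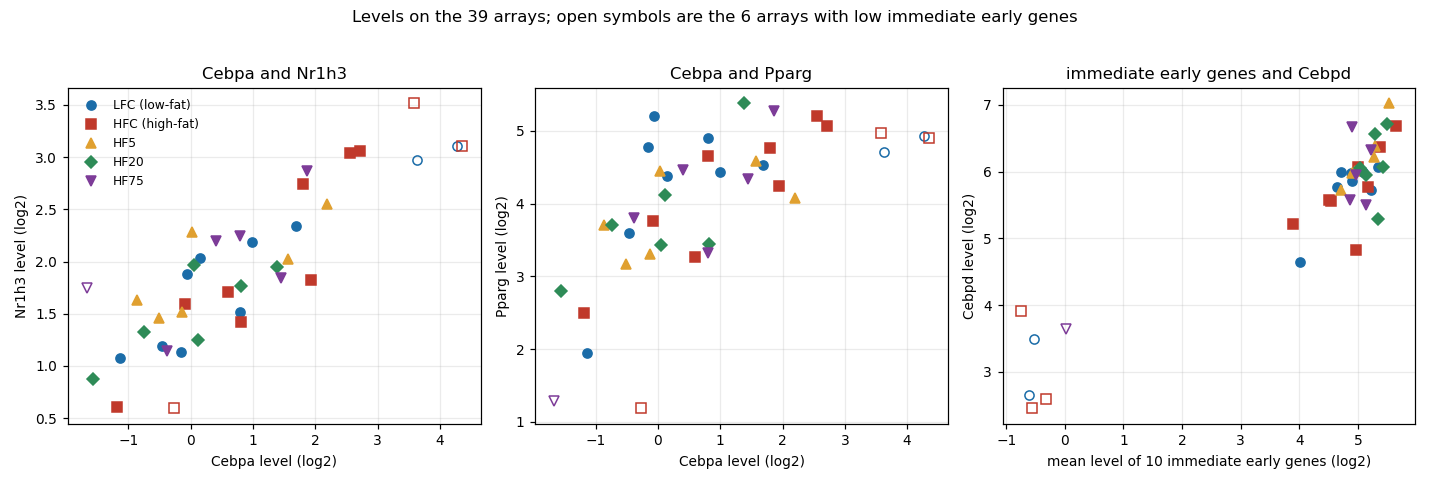
Levels (log2) on the 39 arrays of Cebpa against Nr1h3 (left) and Pparg (middle), and of the mean of 10 immediate early genes against Cebpd (right), with 1 symbol per array and open symbols for the 6 arrays with low immediate early genes. Cebpa rises with Nr1h3 (r = 0.854) and Pparg (r = 0.670), and the 6 arrays lie apart at a Cebpd of 2.45 to 3.91.

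Among the 12144 other genes that were well above background on all arrays, the 3 with the pattern most like each factor were taken by Pearson's r over the 39 arrays, as a description without a test. Nearest to Pparg were Aqp7, the glycerol channel of fat cells (r = 0.893, and 0.850 within time points), 4930402H24Rik (0.866) and Cyp4f16 (0.862). Nearest to Cebpa were Aldh1l1, a folate enzyme (0.937), Aco1 (0.936) and Ppp2r1b (0.936). Klf15 was most like Ghr, the growth hormone receptor (0.871), Aldh6a1, an enzyme of valine breakdown (0.871), and Acsl1, an acyl-CoA synthetase (0.865). For Nr1h3 these were Sdsl (0.897), Tspo (0.882) and Lipe, the hormone-sensitive lipase (0.876). For Ebf1 they were Inpp5f (0.874), Abca1, the cholesterol exporter (0.835), and Slc35b3 (0.797), which had 0.705, 0.740 and 0.537 over the 33 arrays. For Cebpd the same rule, which for this gene spans its 2 clusters of arrays, gave the immediate early genes Jun and Egr1 and the stress-responsive factor Klf6, and within the 33 arrays their r with Cebpd was 0.577, 0.727 and 0.552. Rxra was most like Gm10784 (0.931), Tmem64 (0.872) and Gm4674 (0.864), and Cebpb (2400003C14Rik, 0.778) and Zfp423 (Ypel2, 0.728) had no gene above 0.8.

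The wider network was read in 7 lists of 102 entries (99 genes): other adipogenic regulators, inhibitors of adipogenesis, nuclear receptor partners, targets of Pparg or Cebpa, targets of Nr1h3, glucocorticoid response genes and immediate early genes. None of the 99 genes was called in any comparison, so counts of direction are given as a description beside the median of all genes. Of the 25 targets of Pparg or Cebpa, 4 were higher in HF20 than in HFC, with a median difference of -0.55 against 0.05 over all genes, and 5, 9 and 6 were higher in HF5, HF75 and the 3 doses together, with medians of -0.39, -0.17 and -0.34. These directions did not hold week by week. The mean level of the 25 targets from Week 3 to Week 18 was 3.25, 2.32, 3.73, 5.15, 2.14 and 4.06 on HF20, 3.31, 3.50, 3.86, 4.19, 3.40 and 5.19 on HF75, and 5.26, 5.25, 4.90, 3.33, 1.79 and 3.63 on HFC, so that both doses were below HFC at Weeks 3, 6 and 9 and above it at Weeks 12, 15 and 18. The mean of the 6 adipocyte markers, all of them among the 25, ran likewise at 4.21, 2.81, 5.20, 6.00, 3.06 and 4.70 on HF20 and at 5.55, 5.72, 5.59, 3.88, 2.13 and 4.51 on HFC. Whether fat cell content has a part in these medians was not tested. The target with the smallest p at 20 µg was Lpl, the lipoprotein lipase that releases fatty acids for uptake, at -0.94 (SE 0.34, unadjusted limma p = 0.0113, adjusted p = 0.997). Of the 10 Nr1h3 targets, which share Lpl and Scd1 with the 25, 1, 1, 0 and 0 were higher than HFC in HF5, HF20, HF75 and the doses together, with medians of -0.27, -0.45, -0.46 and -0.40. By week, their mean was below HFC for each dose at Weeks 3, 6 and 9. At Week 12 it was above for each (3.41, 3.57 and 3.38 against 2.99), and at Weeks 15 and 18 the doses fell on both sides. At Week 3 it was 1.84 on the HF75 array, the one with the highest muscle level, against 3.74 on HFC. Abca1 was at -0.95 (SE 0.32) for HF75. These comparisons share the HFC arrays. In HFC against LFC over 10 time points, 14 of 25 Pparg or Cebpa targets and 8 of 10 Nr1h3 targets were higher on HFC, with medians of 0.23 and 0.14 against -0.04 for all genes.

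Among the regulators, Klf9, a Krüppel-like factor induced by glucocorticoids, was higher on HFC than on LFC at Week 3 to 18. Its difference was 0.94 (SE 0.32, unadjusted limma p = 0.00782). In that comparison 15 of the 20 other regulators were higher, with a median of 0.26 against -0.06 for all genes. The regulator mean from Week 3 to Week 18 was 1.13, 0.63, 0.96, 0.91, 0.85 and 1.06 on HFC. On LFC it was 0.12, 0.77, 0.74, 0.68, 1.00 and 0.84. The widest gap was at Week 3, where the LFC array had the highest lymphocyte markers and the lowest regulator mean of all arrays. Its part in the median was not tested. Of the 14 inhibitors 10 were higher on HFC at Week 3 to 18, with a median of 0.17. This direction did not hold week by week. The inhibitor mean from Week 3 to Week 18 was -0.38, -0.37, 0.34, 1.07, 0.83 and 0.69 on HFC. On LFC it was 0.22, 0.36, 0.19, -0.92, 0.96 and 0.95. The widest gap was at Week 12, where the LFC array had low immediate early genes. The part of that array in the median was not tested. The nuclear receptor partners, 8 of 13 higher with a median of 0.17, had the corepressor Nrip1 as the gene with the smallest p (0.68, SE 0.31). At 75 µg the difference of Nrip1 from HFC was -0.76 (SE 0.31). Of the glucocorticoid response genes 8 of 10 were higher on HFC at Week 3 to 18 (median 0.58) and of the immediate early genes 10 of 10 (median 1.19), where the LFC array of Week 12 with low immediate early genes was part of the comparison. From Week 3 to Week 18, 13 of the 14 inhibitors had a positive slope, with a median of 0.050 per week against 0.006 for all genes. The one with the smallest p was Gata3, a factor that holds back the conversion of preadipocytes, at 0.14 per week (SE 0.05, unadjusted limma p = 0.00603). The inhibitor mean was -1.03 on HF75 Week 3 and -0.92 on LFC Week 12, both with low immediate early genes. It was -0.38 and above on the other arrays of these weeks. All 10 immediate early genes and all 10 glucocorticoid response genes also had positive slopes (medians 0.067 and 0.037). The part of those arrays in the slopes was not tested. Of the targets of Pparg or Cebpa 3 of 25 were higher at late than at early time points of LFC and HFC, with a median of -0.66 against -0.02 for all genes. The early arrays of Day 6 and Day 10 had mean levels of 2.17 to 3.87 for the brown and beige markers and 2.19 to 5.77 for the skeletal muscle markers, against -3.59 to 2.78 and -4.53 to 2.20 on the late LFC and HFC arrays, and 3 of these 4 arrays had low immediate early genes. Their part in this median was not tested.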

How the data were processed

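Total RNA of mouse subcutaneous adipose tissue was measured on 39 one-colour Agilent arrays. Per the file headers, the deposited intensity of each spot was background-subtracted and detrended within the array by Feature Extraction 10.5.1.1 (the submitters' processing notes name 9.1), with no scaling between arrays. The array annotation is on mm9. The authors also deposited a table of log2 ratios against LFC at each time, used only as an alternative and to check labels: 26 of its 28 columns that could be compared matched their own array best.

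The log2 of the processed intensity minus that of the array's 75th percentile was taken as the level. Outlier spots were left out and spots of a probe averaged. A gene was read from its brightest probe, and tested if the number of arrays with it well above background reached the size of the fit's smallest group. The tests were two-sided, with limma 3.58.1 in R 4.3.3, time point as a block and Benjamini-Hochberg adjustment over all genes tested, at 0.05. Sign-flip tests over time points were exact, and correlations used 100000 permutations, adjusted over 36 pairs. The number of arrays limits the precision. The scripts were tested on simulated data. Text names all 9 factors, for each list up to 3 genes with the smallest p, and for likeness the 3 genes with the highest r. The 9 genes and the lists were chosen with earlier results of these data known. Promoter windows came from RefSeq. Alternatives covered background correction, normalization, probes, filter, weights, blocks, labels and left-out time points.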

Additional observations from a re-analysis of the deposited data

Results flagged for a closer look

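In 52 groups of 4 to 10 arrays the highest and lowest values were compared with the rest by Dixon's ratio, and 2 stood out, where chance gives about 1 in 20. Pparg was at 1.95 on the LFC array of Week 3, with the nearest of the 10 LFC arrays at 3.59 (ratio 0.503). That array had the highest lymphocyte markers of all (2.07), whose part in the level was not tested. Rxra was at 7.40 on the LFC array of Week 18, with the nearest at 4.72 (ratio 0.497). That array had the lowest 75th percentile of intensity (108), and the second Rxra probe did not follow the first over the arrays.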

How the results depend on the processing

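None of the 9 genes was called in any comparison under the alternatives run, except that with normexp background correction 1 gene, Nr1h3, was called in HF20 against HFC. Of the 81 differences, 34 were larger than their SE. Over their 762 alternatives 752 kept direction and call, 9 reversed and 1 passed the threshold, and 28 of the 34 kept their sign in all of these. A second probe taken alone was not among the 762: with it, Rxra in HF75 against HFC (-0.27) and in HFC against LFC over 10 time points (0.06) and Zfp423 in HF20 against HFC (0.39) turned, the first of which is 1 of the 28. The other 47 were smaller than their SE, and 36 of them changed sign somewhere. The 9 reversals were as follows. The difference of Rxra, HFC against LFC over 10 time points, was 0.0448 with array quality weights. That of Zfp423, HF20 against HFC, was 0.0218 with array quality weights, 0.40 with normexp and 0.0347 with the mean of its probes. That of Zfp423, HF75 against HFC, was 0.0585 with normexp. That of Cebpa, HF75 against HFC, was 0.21 with slide as a random block, and between -1.10 and 0.0573 when each week was left out (0.0573 without Week 3). The slope of Cebpb, change per week from Week 3 to Week 18, was between -0.00565 and 0.0638 when each week was left out (-0.00565 without Week 3). Without the 6 arrays with low immediate early genes, an alternative chosen after seeing the data like that without HF20 Week 15 and LFC Week 18, the difference of Cebpd, late against early time points, was -0.0341. The cause was not tested. Correlated pairs numbered 6 over Week 3 to Week 18 alone against 12 over all arrays. Over all genes the calls went up to 8121 in HF20, 43 for late against early and 20 for the slope. Slide as a random block could not be fitted in 3 of the 121 model settings. The comparisons of diets were paired by time point throughout, as a block in limma and in the exact sign-flip tests.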

Other observations

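The HFC array of Day 1 entered no comparison of diets, since LFC was not measured on that day. Pparg was at 1.18 on it, Nr1h3 at 0.59, Ebf1 at -1.17 and Cebpd at 2.59, and these 4 genes were below their levels on all 10 LFC arrays. Cebpa was at -0.27, Cebpb at 1.34, Klf15 at 0.75 and Zfp423 at -2.57. The skeletal muscle markers of that array had a mean of 6.23, and their part in these levels was not tested.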
